A study of Mus musculus with 30 samples.

Results

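Regulatory T cells (Treg) lacking both Foxp3 and BATF (DKO Treg) that received BATF alone by retrovirus (BATFRV) were compared with DKO Treg that received a mock retrovirus (mockRV), by chromatin accessibility at all 69316 peaks of the larger deposited table. The comparison holds 4 of the 30 libraries of the series, 2 per group, taken by the column names of that table, and the measure is log2 of the normalized peak score plus 1. Every DKO library carries the genotype Foxp3KO-IRES-hCD2.Batf-/-, which BATFRV cells and mockRV cells share. Each came from cells from lymph nodes and spleen, sorted for CD4, hCD2, GFP, Thy1.1 and CD45.2 and against CD45.1, by omniATAC-seq according to the titles. Strain, age, sex and the cells that GFP and Thy1.1 mark are not stated in the labels. For DKO Treg the labels give the source as freshly sorted cells, and the column names carry the word vivo. DKO Treg that received Foxp3 and BATF together (Foxp3BATFRV) and DKO Treg that received Foxp3 alone (Foxp3RV) were set beside them. BATF knockout Treg (BATFKO, Foxp3-IRES-hCD2.Batf-/-) and wild-type Treg (WT, Foxp3-IRES-hCD2), both C57BL6/J, sorted as CD4+ hCD2+ cells from the same organs and assayed by ATAC-seq according to the titles, were also used, with 2 libraries each. The labels number the libraries of a group without saying that they came from separate animals. Each p-value rests on the spread within groups, pooled over all 26 libraries of the table and not only those compared. That spread may be technical.

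BATF is a basic leucine zipper factor of the AP-1 family. It pairs with Jun proteins and binds AP-1 sites, often beside interferon regulatory factors such as IRF4, and it is needed for type 17 and follicular helper T cells and for effector Treg. Foxp3 is the lineage factor of Treg. ATAC-seq counts where a transposase can cut chromatin, so a high score marks an open site.

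With BATF alone, far more sites were more open than were less open. Of the 69316 peaks, 2218 were higher (3.2%) and 202 lower (0.291%) in BATFRV DKO Treg than in mockRV DKO Treg, at a Benjamini-Hochberg adjusted p under 0.05 in limma. Higher peaks changed by a median of 2.15 on the log2 scale and lower peaks by a median of -1.41. Among the higher peaks, 100 had 0 reads in both mockRV libraries, and 14 of the lower peaks had 0 reads in both BATFRV libraries. With those peaks set at a bound from a floor of 3 reads per library, the medians were 2.05 and -1.28. The higher peaks lay nearest to 1415 genes and the lower peaks to 168 genes.

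In the 2218 higher peaks the median score was 43.3 and 42.2 in the BATFRV libraries, against 8.4 and 7.8 in the mockRV libraries. The median over all peaks lay between 39.1 and 51.8 in every library of the table, so the higher peaks were well below an average peak with the mock virus and near it with BATF. Of the higher peaks, 1198 (54.0%) held under 20 reads over both mockRV libraries, a depth found at 18.8% of all peaks. In the 202 lower peaks the median score was 11.8 and 10.6 in the BATFRV libraries, against 30.0 and 31.3 in the mockRV libraries. No called peak had overlapping groups, while across all peaks the groups did not overlap at 18.1% in the higher and 18.7% in the lower direction. Without BATFRV replicate 1, BATFRV replicate 2 or mockRV replicate 2 the higher peaks numbered 1437, 1244 and 1402, and the lower peaks numbered 306, 216 and 61. Of the 2218 higher peaks themselves, 833 kept their call without each of the 4 libraries in turn, with 1196 kept without BATFRV replicate 2 as the smallest number for 1 library.

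The 4 libraries were checked against their labels. At the Batf peak nearest the start of the gene (chr12:85686411-85686811, mm10) the scores were 2.47 and 0 in BATFRV libraries, 2.11 and 0 in mockRV libraries, 0 and 0 in BATFKO Treg and 265 and 312 in WT Treg. The DKO and BATFKO libraries thus all lay far below the WT libraries at the Batf locus, and BATF delivered by the virus was not itself measured. At the strongest Foxp3 peak the scores were 595 and 1008 in BATFRV libraries and 665 and 1119 in mockRV libraries, which overlap. Reads in peaks ranged from 7647075 to 13084571 in the 8 DKO libraries and from 3716499 to 25462278 over the table, and the median SE of a log2 change was 0.34. Over the 8 DKO libraries the first principal component held 45.9% of the variance, with values of 14.3 and 2.75 for BATFRV, -99.9 and -123 for mockRV, 162 and 189 for Foxp3BATFRV and -65.3 and -79.3 for Foxp3RV.

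Markers of other cells were summed as scores. Of 10 B cell markers 6 had a peak and summed to 877 and 848 in BATFRV libraries, against 720 and 746 in mockRV libraries, with no peak at Ms4a1, Cd79a or Fcer2a. Of 10 myeloid markers 6 had a peak and summed to 3324 and 3920 in BATFRV libraries, against 3478 and 4123 in mockRV libraries, with no peak at Csf1r, Cd68, Fcgr3 or Adgre1. The CD8 and NK cell markers summed to 2803 and 2874 against 3109 and 3569, and the erythroid markers to 1216 and 1131 against 1328 and 1367, BATFRV first, with no peak at Hba-a1 or Alas2. In both BATFRV libraries the B cell sum lay above, and the CD8 and NK cell and erythroid sums below, those of both mockRV libraries, and their part in the results was not tested. Genes did not all move with their sum, as the strongest peaks at Cd22 and Cd8a went the other way. In sorted bulk cells, more cells with an open site and more openness per cell cannot be told apart.

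Promoter sequences are shown for called peaks that lie over them, because BATF binds the AP-1 letters. A called peak covered at least 150 of the 300 bases of a RefSeq promoter window (250 before to 50 after the start, GRCm38.p6) at 28 of the 2218 higher peaks (1.26%), 6 of the 202 lower peaks (2.97%) and 12.0% of all peaks. The 28 peaks covered 29 windows. Of these, 10 (34.5%) held the AP-1 motif TGANTCA, read on both strands, against 1 of the 8 windows under lower peaks (12.5%), 4.81% of 10000 windows under any peak and 7.81% of 32817 windows in all. The Mmp10 and Tnfrsf8 promoters are printed whole, 5′ to 3′ along the gene, with the AP-1 motif in capitals. Mmp10 (stromelysin-2, a secreted metalloproteinase) lies at chr9:7502092-7502391 on the plus strand, and Tnfrsf8 (CD30, a TNF receptor of activated T cells) at chr4:145315115-145315414 on the minus strand.
Mmp10: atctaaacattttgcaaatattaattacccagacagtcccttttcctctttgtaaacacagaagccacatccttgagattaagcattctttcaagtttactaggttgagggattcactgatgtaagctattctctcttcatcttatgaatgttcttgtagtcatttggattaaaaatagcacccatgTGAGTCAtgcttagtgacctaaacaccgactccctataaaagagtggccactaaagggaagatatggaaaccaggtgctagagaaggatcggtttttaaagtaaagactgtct
Tnfrsf8: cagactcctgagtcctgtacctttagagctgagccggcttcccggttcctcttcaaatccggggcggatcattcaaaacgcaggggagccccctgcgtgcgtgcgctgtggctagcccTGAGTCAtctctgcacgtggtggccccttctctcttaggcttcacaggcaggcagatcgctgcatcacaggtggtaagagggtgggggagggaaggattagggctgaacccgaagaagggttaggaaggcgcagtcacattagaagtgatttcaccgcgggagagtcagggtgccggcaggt

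Shorter stretches of 10 bases on either side of the motif show the same letters in other promoters under higher peaks. Slamf7 encodes a receptor of the SLAM family (chr1:171649025-171649051, minus strand), Ctla2b is a cysteine protease inhibitor gene (chr13:60897574-60897600, minus strand), and Rdh1 encodes a retinol dehydrogenase (chr10:127759599-127759625, plus strand).
Slamf7: aaacgtgagaTGACTCAttgtaacaag
Ctla2b: gcttcctgtaTGACTCAgcctagtcct
Rdh1: atgtgggccaTGAGTCAttaggcttag

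Under higher peaks there were 12 AP-1 motifs, 11 with C or G and 1 with A or T as the middle base. The CRE motif TGACGTCA was in 0 of the 29 windows (3.75% under any peak) and the TCF motif CTTTGAT in 0 (2.63%). The ETS motif GGAAGT was in 27.6% (30.9% under any peak) and the forkhead motif TGTTTAC in 6.90% (2.45%). These counts describe 29 windows, and a match is not a binding site. TGANTCA reads the same on both strands when its middle base is set aside, and none of the other motifs contains it.

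Mmp10 was among the 10 largest rises of peaks above the median score. The peak over its promoter scored 39.6 and 27.8 in BATFRV libraries, against 0 and 0 in mockRV libraries. Both BATFRV libraries lay far above the mockRV libraries, at least 11.1-fold higher against the floor of 3 reads per library (adjusted p = 5.01e-07). A peak just upstream (chr9:7501124-7501524) scored 95.3 and 70.1 against 1.05 and 0, with 150 reads in the BATFRV libraries and 1 in the mockRV libraries, a ratio of 160 with a counting interval of 28.3 to 6355. Such intervals cover counting error only and not the spread between libraries. They also take each read as a separate count, though reads carry no molecular identifiers. A peak within the gene scored 276 and 289 against 4.22 and 6.84 (log2 change 5.47 ± 0.37, SE, adjusted p = 7.09e-11). Of 4 peaks at Mmp10, 3 were higher in BATFRV DKO Treg, 3 fell in BATFKO Treg and 3 rose with BATF beside Foxp3. The BATFKO call of the promoter peak ended without any 1 of the 4 BATFKO and WT libraries (adjusted p 0.0561 to 0.258).

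The Tnfrsf8 promoter peak scored 213 and 221 in BATFRV libraries, against 98.0 and 73.3 in mockRV libraries (log2 change 1.34 ± 0.23, adjusted p = 0.000293). It was already open with the mock virus, unlike Mmp10. The Slamf7 promoter peak changed by 0.90, a call that ended without either BATFRV library or mockRV replicate 2 (adjusted p up to 0.192). That of Ctla2b changed by 0.90 and lost its call without BATFRV replicate 2 or mockRV replicate 1 (up to 0.281). That of Rdh1 changed by 2.30 and lost its call without BATFRV replicate 1 or mockRV replicate 1 (up to 0.0763).

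**Figure D1:**
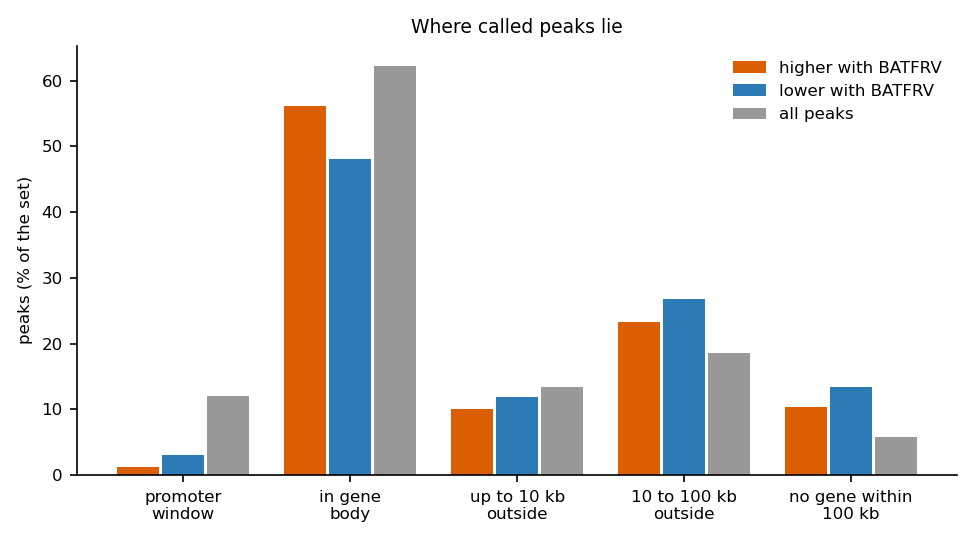
Share of peaks (y axis, percent of the set) by place relative to the nearest protein-coding gene (x axis) for peaks higher with BATFRV, peaks lower with BATFRV and all peaks. Promoter windows hold 1.26% of the higher peaks, 2.97% of the lower peaks and 12.0% of all peaks. These windows are not limited to protein-coding genes, and peaks over them are counted again in the other places.

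Most changed sites lay away from promoters. Gene bodies held 56.2% of higher peaks and 48.0% of lower peaks, against 62.3% of all peaks on annotated chromosomes. The distance of 10 to 100 kb from a gene held 23.3% of higher and 26.7% of lower peaks, against 18.6% of all. No protein-coding gene lay within 100 kb of 10.4% of higher and 13.4% of lower peaks, against 5.77% of all. Since the annotation table gave neither strand nor exons, exon, intron and UTR were not separated, and a gene name here means the nearest gene, not a target.

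The largest changes among peaks above the median score were at Mmp10, E130308A19Rik, Rps29, Nrp1, Gnptab, Pkdcc, Kdm4a, Ptpn13, Cd83 and Slco3a1. All 10 kept their call with each of the 4 libraries left out in turn. At Gnptab, which makes the enzyme that tags lysosomal proteins, a peak scored 407 and 455 in BATFRV libraries, against 11.6 and 7.82 in mockRV libraries (5.36 ± 0.28, adjusted p = 2.52e-13). At Ptpn13, a protein tyrosine phosphatase, the scores were 241 and 199 against 8.43 and 5.87 (4.77 ± 0.32). At Cd83, a surface marker of activated cells, a peak 23544 bp from the gene scored 69.3 and 69.1 against 3.16 and 0.978 (4.61 ± 0.37). In each of these both mockRV libraries scored below 12 and both BATFRV libraries stood far above them. Replicates were uneven at Slco3a1, with 68.0 and 243 in BATFRV libraries against 6.33 and 2.93, and at E130308A19Rik, with 131 and 156 against 5.27 and 0.

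**Figure D2:**
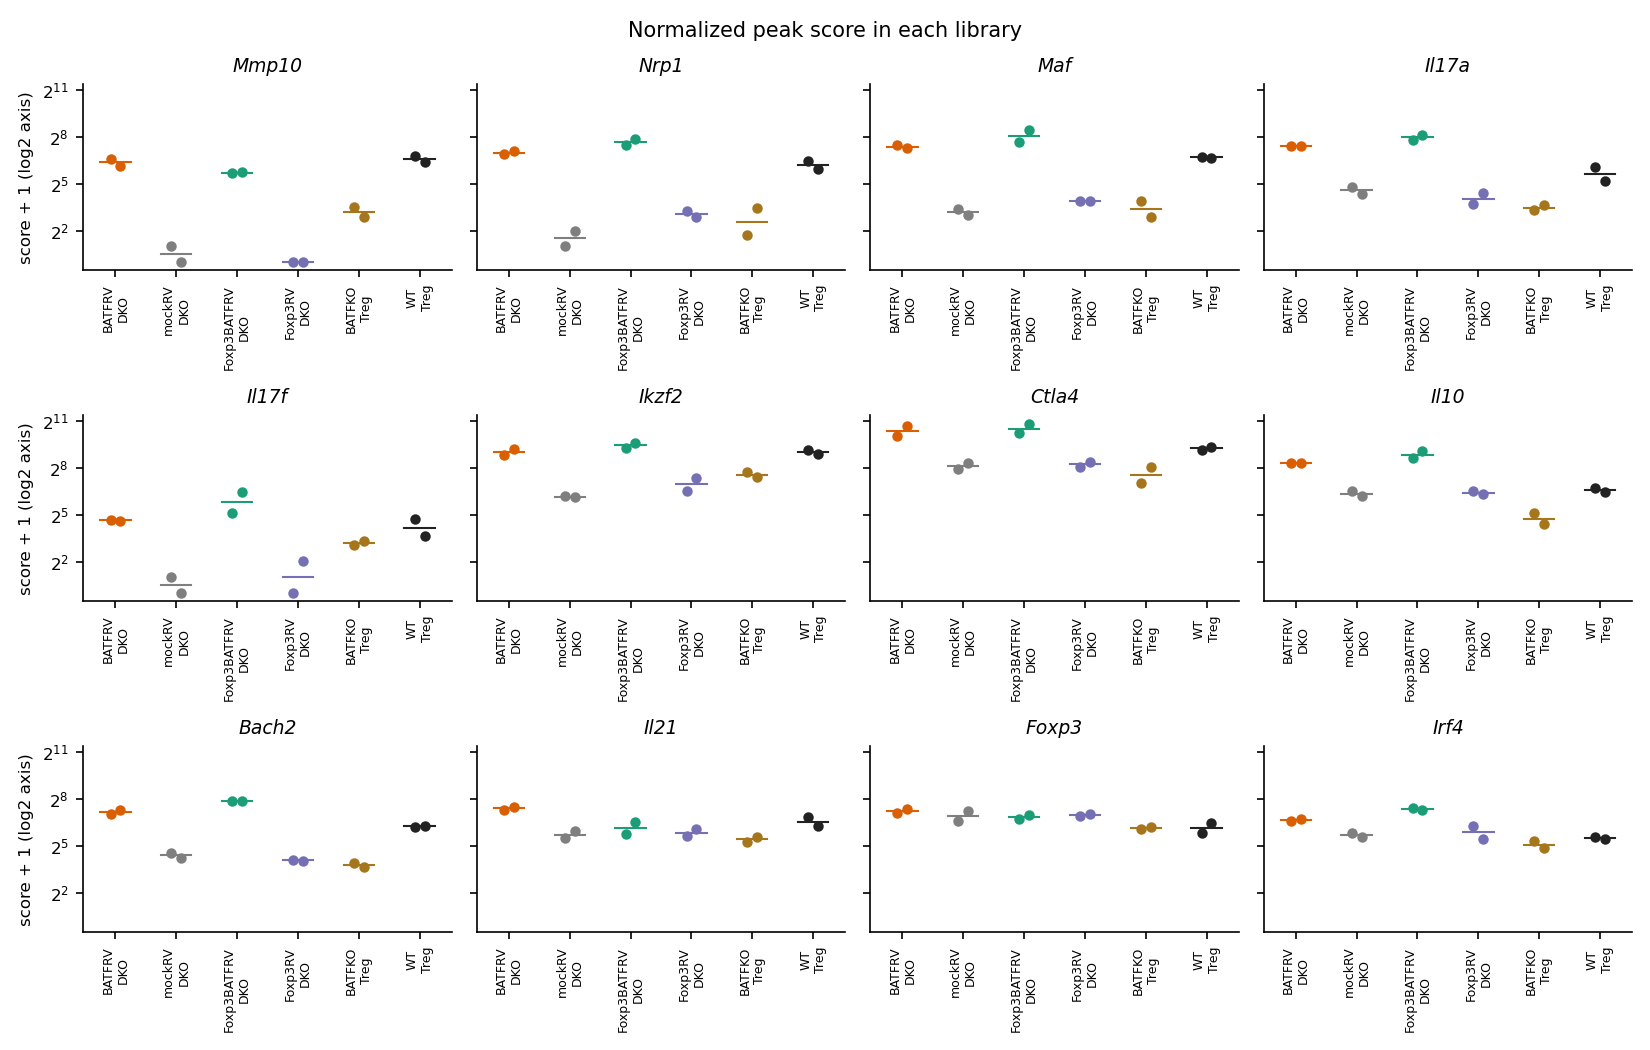
Score plus 1 on a log2 axis (y) for 1 peak per gene in 6 groups (x), with points for the 2 libraries and a line for their mean. At Mmp10, Nrp1, Maf, Il17a and Bach2 the BATFRV libraries lie above the mockRV libraries, while at Foxp3 they overlap and at Irf4 the difference did not pass the test.

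Some genes of Treg identity changed at few of their peaks. Over 211 peaks of 16 genes in that list, 16 (7.58%) passed as higher and 0 as lower, against 3.2% and 0.291% of all peaks. They lay at Nrp1 (9 of its 38 peaks), Ikzf2 (5 of 41), Ctla4 (1) and Socs2 (1). The median change over the list was 0.03, against -0.04 over all peaks, and most peaks of the list did not pass the test. Of the 16, 8 kept their call without BATFRV replicate 1, 9 without BATFRV replicate 2, 10 without mockRV replicate 2 and 6 without each library in turn. Foxp3 itself had 0 of 5 and Il2ra 0 of 18 peaks called. The Foxp3 promoter peak scored 135 and 160 in BATFRV libraries and 94.9 and 146 in mockRV libraries, which overlap.

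Nrp1, a co-receptor found on thymic Treg, showed the strongest change of the list. A peak 30190 bp from the gene (chr8:128535666-128536066) scored 118 and 133 in BATFRV libraries, against 1.05 and 2.93 in mockRV libraries (5.47 ± 0.41, adjusted p = 4.91e-10). A second, stronger peak scored 350 and 351 against 35.8 and 37.1 (3.23 ± 0.26). It is the Nrp1 site most lost in BATFKO Treg, at 7.2 and 3.79 against 314 and 247 in WT Treg (-5.48, adjusted p = 1.94e-14). Of the 9 higher Nrp1 peaks, 4 kept their call without BATFRV replicate 1 and 6 without mockRV replicate 2, and both peaks described here are among the 4. All 9 were also higher with BATF beside Foxp3. Those calls ended without Foxp3BATFRV replicate 2 at the peaks starting at 128418468, 128529043 and 128594184. At 128418468 the call also ended without Foxp3RV replicate 1, and at 128529043 and 128594184 without Foxp3RV replicate 2. In BATFKO Treg 5 were lower. The peak starting at 128529043 lost that call without any 1 of the BATFKO and WT libraries. The peak starting at 128547362 lost it without BATFKO replicate 1 or WT replicate 1.

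At Ikzf2, which encodes Helios, the peak with the smallest adjusted p scored 452 and 597 in BATFRV libraries, against 70.6 and 68.4 in mockRV libraries (2.88 ± 0.22, adjusted p = 7.29e-10). Each of the other 4 called Ikzf2 peaks lost its call without BATFRV replicate 2, and some without other libraries too (adjusted p up to 0.278). At Ctla4, the inhibitory receptor of Treg, the scores were 1045 and 1654 in BATFRV libraries, against 242 and 310 in mockRV libraries (2.26 ± 0.27, adjusted p = 1.93e-06). WT Treg scored 554 and 476 at Ikzf2, which overlaps BATFRV, and 561 and 643 at Ctla4, below BATFRV. The titles give different ATAC protocols for these groups, and their part in the levels was not tested.

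Genes of type 17 and follicular helper cells held the largest share of higher peaks among the lists. Of 153 peaks at 15 such genes, 24 (15.7%) were higher and 0 lower, with a median change of 0.33. They included peaks at Maf (4), Il17a, Il23r, Ahr and Il21 (3 each), Il17f and Rora (2 each), Il6st and Cxcr5 (1 each). Of the 24, 13 kept their call without BATFRV replicate 2, 15 without either mockRV library and 12 without each library in turn. The list was written with earlier results of these data known, and several genes are also in other lists. At Maf, a factor that drives Il10 and Il21, a peak 19910 bp away scored 174 and 155 in BATFRV libraries, against 9.49 and 6.84 in mockRV libraries (4.19 ± 0.37, adjusted p = 5.14e-09). At Il17a, the cytokine that defines type 17 cells, a peak 6006 bp from the gene scored 172 and 171 against 26.4 and 19.6 (2.86 ± 0.47, adjusted p = 0.000185).

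Its neighbour Il17f had a peak at 24.7 and 23.0 against 1.05 and 0, with 44 reads in BATFRV libraries and 1 in mockRV libraries, a ratio of 46.9 with a counting interval of 7.99 to 1894. Ahr, the aryl hydrocarbon receptor, had a peak at 28.5 and 27.8 against 1.05 and 0.978 (ratio 27.7, interval 7.29 to 235). Il23r, the interleukin 23 receptor chain, had an intragenic peak at 8.66 and 12.5 against 0 and 0 (at least 3.47-fold higher, adjusted p = 0.000115). Rora, a retinoid-related orphan receptor, had a peak at 56.9 and 49.9 against 4.22 and 7.82 (3.00 ± 0.39). The groups lay apart at each of these peaks, while the Il23r scores were low in both.

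**Figure D3:**
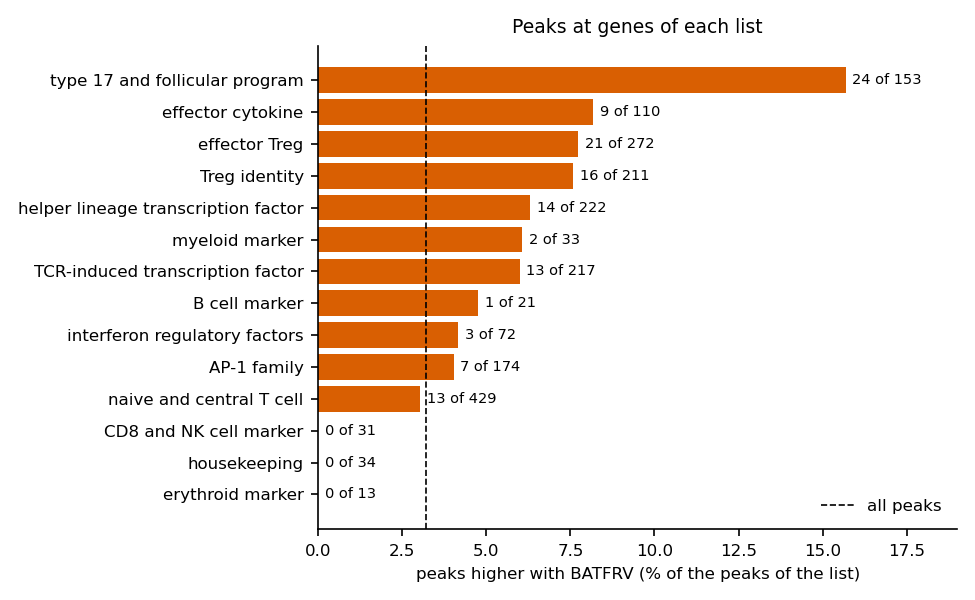
Share of the peaks at the genes of each list that were higher in BATFRV DKO Treg (x axis, percent of the peaks of the list), with the count beside each bar and the share over all peaks as a dashed line. The type 17 and follicular list stands at 15.7% against 3.2% of all peaks.

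Among 110 peaks at effector cytokine genes 9 (8.18%) were higher, at Il17a (3), Il21 (3), Il17f (2) and Tnfsf11 (1). Those at Il17a, Il21 and Il17f are the peaks already counted in the type 17 list. Of the 9, 4 kept their call without BATFRV replicate 2 or mockRV replicate 2, 5 without BATFRV replicate 1 or mockRV replicate 1, and 3 without each in turn, 1 each at Il17a, Il17f and Il21. Il21, the follicular cytokine, had a peak at 155 and 180 in BATFRV libraries, against 43.2 and 60.6 in mockRV libraries (1.68 ± 0.29, adjusted p = 0.000349). Ifng had 0 of 24 peaks called, and its peak with the smallest adjusted p scored 122 and 90.2 against 206 and 174 (-0.84, adjusted p = 0.0556). The Il2 peak scored 77.9 and 88.3 against 136 and 131, and it did not pass (adjusted p = 0.438).

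Effector Treg genes held 21 higher (7.72%) and 0 lower of 272 peaks, with a median change of 0.23. Of the 21, 12 kept their call without BATFRV replicate 1, 10 without BATFRV replicate 2, 13 without mockRV replicate 1, 9 without mockRV replicate 2 and 8 without each in turn. At Il10, the main suppressive cytokine of effector Treg, a peak 8910 bp away scored 320 and 319 in BATFRV libraries, against 89.6 and 71.4 in mockRV libraries (1.99 ± 0.25, adjusted p = 2.38e-06). Il1rl1, the receptor of interleukin 33, scored 40.8 and 63.4 against 3.16 and 3.91 (3.52 ± 0.58). Prdm1, which encodes the repressor Blimp-1, scored 43.3 and 26.9 against 9.49 and 7.82 (1.87 ± 0.31, adjusted p = 0.000196). Icos had 4 of 27 peaks higher. Each of these lost its call without BATFRV replicate 2 or mockRV replicate 1, and some without other libraries too.

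Among factors of the AP-1 family and its partners, 7 of 174 peaks (4.02%) were higher and 1 lower, near the share of all peaks, and the median change was -0.20. Of the 7, 5 lay at Bach2, a repressor that binds the same kind of site. The peak with the smallest adjusted p, 58312 bp from Bach2, scored 129 and 156 in BATFRV libraries, against 22.1 and 17.6 in mockRV libraries (2.78 ± 0.37, adjusted p = 7.61e-06). Another Bach2 peak, 2123 bp from the gene, scored 510 and 676 against 210 and 209 (1.48 ± 0.23). Irf2 held the 3 higher of 72 peaks at interferon regulatory factors, of which 1 kept its call without BATFRV replicate 1 or mockRV replicate 2, while Irf4 had 0 of 11. The Irf4 peak scored 94.0 and 104 against 54.8 and 45.9 (0.96 ± 0.39, adjusted p = 0.242), so its groups lay apart without passing the test.

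The factors induced by T cell receptor signals had 13 of 217 peaks higher (5.99%), mainly at Tox2 (6 of its 9 peaks) and Tox (4 of 42). Without BATFRV replicate 2, 6 of the 13 kept their call, among them 3 at Tox2 and 2 at Tox, and without mockRV replicate 1, 7 did. The Tox2 peak nearest its start scored 263 and 322 in BATFRV libraries, against 89.6 and 90.9 in mockRV libraries (1.68 ± 0.22, adjusted p = 4.39e-06). Another Tox2 peak, 36291 bp from the gene, scored 61.9 and 47.0 against 7.38 and 9.78 (2.53 ± 0.37). Naive and central T cell genes had 13 of 429 peaks higher (3.03%) and 1 lower, near the share of all peaks, and 6 of the 13 kept their call without BATFRV replicate 2 or mockRV replicate 2. Foxp1, a forkhead factor of resting T cells, scored 434 and 437 against 179 and 193 (1.23 ± 0.22). Tcf7 had no peak called higher.

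Higher peaks also fell at genes of other lineages. A peak in Pax5, the B cell factor, scored 73.0 and 92.2 in BATFRV libraries, against 4.22 and 4.89 in mockRV libraries (3.90 ± 0.44, adjusted p = 5.01e-07). One in Mpo, the myeloid peroxidase, scored 29.7 and 40.3 against 0 and 0 (at least 11.5-fold higher). These were the single B cell peak of 21, and 1 of 2 myeloid peaks of 33, that were called, the other being at Cebpa. CD8 and NK cell markers, erythroid markers and housekeeping genes had 0 of 31, 0 of 13 and 0 of 34 peaks called higher. Over all peaks 3.2% were called higher, so counts from lists this small do not set any of them apart.

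Falls were smaller than rises. Of the 10 peaks with the largest fall above the median score, at Zfp644, Art4, Fbxl17, Phldb2, Dync1li2, Septin7, Map3k5 and 3 other genes, the change ran from -1.63 to -1.30. Of the 10, Art4 and Dync1li2 kept their call without each library. Fbxl17, Map3k5 and Zfp644 were among those that lost it without BATFRV replicate 1, Zfp644 also without BATFRV replicate 2 or mockRV replicate 2. At Dync1li2, a dynein chain, the scores were 21.0 and 26.9 in BATFRV libraries, against 60.1 and 73.3 in mockRV libraries (-1.44 ± 0.26, adjusted p = 0.000495). At Art4 they were 9.90 and 11.5 against 31.6 and 35.2 (-1.56 ± 0.30). Cd28, the costimulatory receptor, had a peak that fell to 7.42 and 3.84 against 15.8 and 26.4 (-1.75), a call that ended without BATFRV replicate 2 or mockRV replicate 2 (adjusted p up to 0.315).

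The same sites were asked about where BATF was missing rather than returned. BATFKO Treg share no library with the BATFRV and mockRV groups. Against WT Treg they had 43 higher (0.062%) and 989 lower (1.43%) peaks. Of the 2218 peaks higher with BATFRV, 732 (33.0%) were lower in BATFKO Treg and 0 were higher, and these were 74.0% of the 989. The 2218 peaks changed by a median of -1.14 in BATFKO Treg, against 0.03 over all peaks, and 2124 of them lay below 0. Of the 202 peaks lower with BATFRV, 0 were lower and 2 higher in BATFKO Treg, with a median of 0.25.

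Across all 69316 peaks the change with BATFRV and the change in BATFKO Treg had Pearson's r of -0.51 and Spearman's rho of -0.30, given as a description, since peaks are not independent replicates. Leaving out WT Treg replicate 1 or BATFKO replicate 2 brought the 732 to 304 and 449, and the share of 33.0% to 13.7% and 20.2%. With quantile scaling, BATFKO Treg had 504 higher and 2007 lower peaks, in place of 43 and 989, and the share was 63.6% (928 of 1460).

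**Figure D4:**
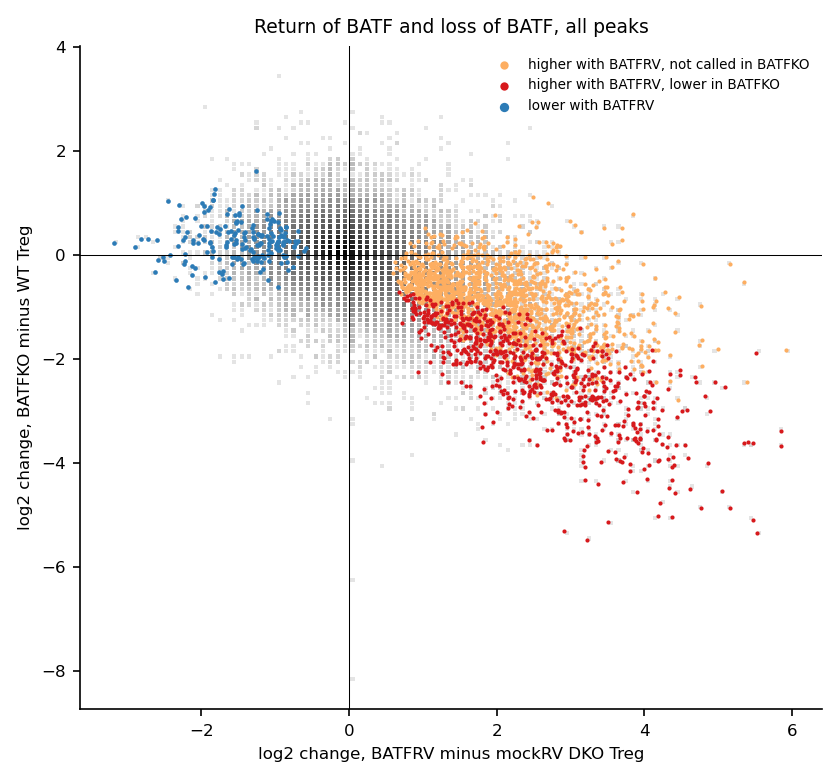
Log2 change in BATFRV minus mockRV DKO Treg (x) against log2 change in BATFKO minus WT Treg (y) for all peaks, with density in grey. The 732 peaks higher with BATFRV and lower in BATFKO Treg fill the lower right, and no peak higher with BATFRV was called higher in BATFKO Treg.

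The 732 peaks started and ended higher than the remaining 1486. Their median scores were 76.7 and 78.7 in BATFRV libraries, against 12.7 and 10.8 in mockRV libraries, while the 1486 had 33.4 and 33.6 against 7.4 and 5.9. A peak not called lower in BATFKO Treg is not shown to be the same there as in WT Treg. Among named sites lower in BATFKO Treg without any one library, Ptpn13 scored 9.96 and 3.79 in BATFKO Treg against 244 and 181 in WT Treg (-4.87), and Maf 13.8 and 6.31 against 104 and 98.0 (-3.29). Ctla4 scored 127 and 264 against 561 and 643 (-1.71, adjusted p = 0.000229). The Il21 and Il17a peaks fell as well, but both lost that call without BATFKO replicate 1 or WT replicate 1. The Il21 peak lost it without BATFKO replicate 2 too.

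BATF was also compared in the presence of Foxp3, in Foxp3BATFRV against Foxp3RV DKO Treg, which share no library with BATFRV and mockRV. There 7334 peaks were higher (10.6%) and 5224 lower (7.54%). Of the 2218 peaks higher with BATF alone, 1833 (82.6%) were higher and 5 lower, with a median change of 2.36. Of the 202 lower peaks, 58 (28.7%) were lower and 4 higher, with a median of -0.65. Leaving out BATFRV replicate 2 or mockRV replicate 2 took the 1833 to 1099 and 1184.

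Of the 732 peaks also lower in BATFKO Treg, 713 (97.4%) were higher with BATF beside Foxp3, and of the remaining 1486, 1120 (75.4%) were. At Il10 the scores were 394 and 524 in Foxp3BATFRV libraries, against 90.4 and 78.3 in Foxp3RV libraries (2.42, adjusted p = 2.4e-08). At Maf they were 203 and 344 against 14 and 13.8 (4.16). At Il21 BATF beside Foxp3 gave 53.4 and 88.7 against 47.3 and 64.5, which did not pass (0.31, adjusted p = 0.538). The Il23r intragenic peak scored 0.971 and 0 with both factors and 0 and 0 with Foxp3 alone, at or under the floor.

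The difference between the BATF effect with and without Foxp3 was tested for each peak. It was called at 406 peaks (0.586%) as larger and at 351 (0.506%) as smaller with Foxp3. Among the 2218 peaks it was larger at 53 and smaller at 20, a count that shares libraries with the comparison that picked them. The difference was -1.37 at the Il21 peak (adjusted p = 0.0997) and -3.02 at the Il23r peak (adjusted p = 0.0542), and neither passed.

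The remaining comparisons share a library group with BATFRV or mockRV and are given side by side. BATFRV minus Foxp3RV called 3349 peaks higher (4.83%) and 1604 lower (2.31%), among them 1499 and 1 of the 2218. Foxp3BATFRV minus BATFRV called 4905 higher (7.08%) and 4857 lower (7.01%), among them 594 and 99 of the 2218, with a median change of 0.65 over the 2218. Foxp3RV minus mockRV called 701 higher (1.01%) and 564 lower (0.814%), among them 152 and 28 of the 2218, with a median of 0.31. By median score, the 2218 peaks stood at 69.9 and 92.7 in Foxp3BATFRV, 43.3 and 42.2 in BATFRV, 11.8 and 12.3 in Foxp3RV and 8.4 and 7.8 in mockRV libraries.

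**Figure D5:**
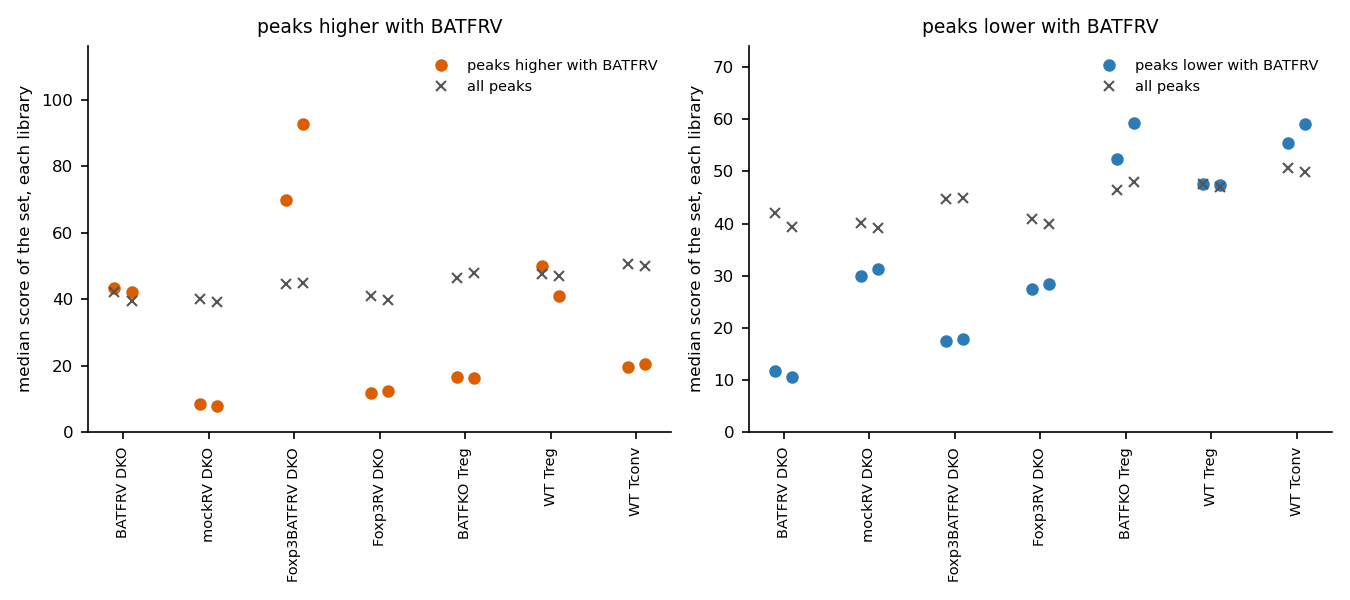
Median score (y axis) in each library of 7 groups (x axis) for the 2218 peaks higher and the 202 peaks lower with BATFRV, with crosses for all peaks. For the higher set the Foxp3BATFRV, BATFRV and WT Treg libraries stand above the mockRV, Foxp3RV, BATFKO and Tconv libraries.

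In cells that were never knocked out, 971 of the 2218 peaks (43.8%) were higher in WT Treg than in WT conventional T cells (Tconv) and 80 (3.61%) were lower, against 10.1% and 9.92% of all peaks. Their median scores were 50.1 and 40.8 in WT Treg and 19.6 and 20.4 in Tconv. Effector Treg (eTreg) and central Treg (cTreg) cannot be ordered, because the deposited tables disagree on names. The libraries that the 26-library table calls eTreg and cTreg had medians of 86.4 and 87.8 against 15.1 and 15.4. Those that the 22-library table calls eTreg and cTreg had 19.1 and 20.8 against 36.2 and 37.4. The direction thus turns with the name, and for 12 of 18 shared libraries the names differ. These hold no library of the BATFKO, WT Treg or Tconv groups. The DKO libraries are in the 26-library table alone, so their names could not be compared.

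MicroRNA genes were looked at last, since miR-155 is a known activation-induced regulator of T cells. Of 1005 RefSeq hairpins, 265 had a peak within 2000 bp and 8 a called one. These were 5 hairpins near a higher peak (1.89% of the 265) and 3 near a lower peak (1.13%). Over all peaks 3.2% were called higher and 0.291% lower, but those are shares of peaks, not of hairpins. The 3 hairpins near a lower peak, Mir450-1, Mir450-2 and Mir542, share 1 peak. That peak was nearly empty, at 0 and 0.96 in BATFRV libraries against 4.22 and 3.91 in mockRV libraries (adjusted p = 0.0331), and it lost its call without BATFRV replicate 1 or either mockRV library (up to 0.323). A peak over the Mir361 hairpin (chrX:113074800-113075200) scored 40.8 and 36.5 in BATFRV libraries, against 1.05 and 0 in mockRV libraries, with a read ratio of 75.7 and a counting interval of 13.1 to 3030 (adjusted p = 1.45e-05). A peak 614 bp from Mir155 scored 323 and 276 against 196 and 165 (0.73 ± 0.18, adjusted p = 0.0128). That at Mir148a scored 212 and 181 against 114 and 85.0 (0.99 ± 0.24, adjusted p = 0.0152). The Mir155 and Mir148a calls ended without BATFRV replicate 1 or mockRV replicate 2, and the Mir148a call also without BATFRV replicate 2. An accessible site is not a measure of the miRNA. The mature forms are shown with their seed, bases 2 to 8, in capitals.
mmu-miR-361-5p: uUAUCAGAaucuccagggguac
mmu-miR-155-5p: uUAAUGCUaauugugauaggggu
mmu-miR-148a-3p: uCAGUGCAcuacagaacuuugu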

How the data were processed

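Reads were processed by the authors, and the deposited values are a normalized signal, 1 score per peak and library, at or above 0. Per the submitters' processing notes, the build was mm10 and the tools were Bowtie2 2.4.1, MACS2 2.2.7.1, DiffBind 3.4.11 and 3.0.15 and edgeR 3.36.0 and 3.38.4, with roles not given. Each deposited score was a whole number of reads times 1 factor per library, with 100% of values whole within 0.02.

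All 26 libraries of 13 groups were fitted together with limma 3.58.1 in R 4.3.3 (trend and robust options, 13 residual degrees of freedom) on log2(score + 1), with Benjamini-Hochberg adjustment over 69316 peaks. This understates changes of low peaks. In simulated data for this comparison, only peaks with a mean score above the median were changed. Of these, 29 of 100 changed 2-fold and 82 of 100 changed 4-fold were recovered, with 5 false calls. Recovery of lower peaks was not simulated, so these figures do not cover them. Apart from the changed peaks, all simulated libraries shared 1 mean and 1 spread per peak, the spread taken from the DKO libraries. The 5 false calls thus do not cover groups that differ in spread. Peaks went to the nearest RefSeq protein-coding gene body within 100 kb, as the annotation gives no strand. Named peaks were, per direction, the 10 largest changes above the median score, the 3 smallest adjusted p per list, and a fixed set of genes. The other loci, the promoters and miRNAs, and the Foxp3BATFRV minus Foxp3RV, interaction and wild-type comparisons were picked after values were seen. Members and lists were chosen with earlier results of these data known. Peak-wide motif content was not analysed here, as no genome was used. Alternatives, among them edgeR 4.0.16 on the recovered reads, are in the closing section. Some genes of the lists are not reported here by name.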

Additional observations from a re-analysis of the deposited data

Results flagged for a closer look

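The BATF effect with Foxp3 differed from the effect without it at 2 of the named peaks, by the test of that difference in limma. Over all peaks it was called at 0.586% as larger and at 0.506% as smaller with Foxp3. Both named peaks were picked by their result in BATFRV minus mockRV, whose libraries also enter this test. At a peak by Dbpht2 (mm10, chr12:74316965) the scores were 1.24 and 0.96 in BATFRV libraries, against 11.6 and 6.84 in mockRV libraries (adjusted p = 0.000483), a read ratio of 0.118 with a counting interval of 0.0133 to 0.495. With Foxp3 they were 10.7 and 8.06 in Foxp3BATFRV libraries, against 8.61 and 9.21 in Foxp3RV libraries (0.05, adjusted p = 0.953). The difference was 2.30 (adjusted p = 0.0427), and the BATFRV libraries held 2 reads in all. At a peak by Cebpa (chr7:35139941), a myeloid factor, the scores were 22.3 and 12.5 in BATFRV libraries, against 1.05 and 0.978 in mockRV libraries, a read ratio of 16.5 with a counting interval of 4.20 to 142. With Foxp3 they were 56.3 and 108 in Foxp3BATFRV libraries, against 0 and 0 in Foxp3RV libraries, at least 21.0-fold higher. The difference on the log2(score + 1) scale was 3.17 (adjusted p = 0.0334). With 0 reads in the Foxp3RV libraries its size depends on the added 1, and the bound of 21.0 lies inside the counting interval of the ratio without Foxp3.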

How the results depend on the processing

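None of the 143 named called peaks turned its direction in BATFRV minus mockRV. The balance of called peaks did turn in other comparisons. Foxp3BATFRV minus Foxp3RV had 7334 higher and 5224 lower peaks as deposited, but 5507 and 5646 with quantile scaling. Foxp3BATFRV minus BATFRV had 4905 and 4857 as deposited, but 4360 and 5631 with TMM scaling. The 2420 called peaks of BATFRV minus mockRV became 1566 in a fit of the 8 DKO libraries alone, 943 when tested against a 1.5-fold change, 1632 with quantile scaling and 2538 with edgeR on recovered reads, and 1460 to 2232 without 1 library. The 2218 higher peaks became 1460 with quantile scaling, 932 against 1.5-fold, and 1244 to 2052 without 1 library. The 202 lower peaks became 113 with only the groups compared, 37 with the 8 DKO libraries, 11 against 1.5-fold, and 61 to 306 without 1 library. BATFRV minus Foxp3RV (4953) gave 2978 with the 8 DKO libraries, 1281 against 1.5-fold and 2606 to 4612 without 1 library. Foxp3BATFRV minus BATFRV (9762) gave 2129 against 1.5-fold and 5237 to 7261 without 1 library. Foxp3BATFRV minus Foxp3RV (12558) gave 7313 with only the groups compared, 4212 against 1.5-fold and 8236 to 11739 without 1 library. BATFKO minus WT (1032) gave 1600 with a pseudocount of 5, 2511 with quantile scaling, 1800 with edgeR, 356 against 1.5-fold and 347 to 782 without 1 library, the lowest without WT Treg replicate 1. The 732 shared peaks became 283 against 1.5-fold, 928 with quantile scaling, 976 with a pseudocount of 5, 1043 with edgeR and 304 to 628 without 1 library, and their share of the higher peaks ran from 13.7% without WT Treg replicate 1 to 63.6% with quantile scaling. The 1833 became 805 against 1.5-fold, 2126 with the replicate block and 1099 to 1788 without 1 library, with shares from 69.9% to 90.7%. The cause of these moves was not tested, apart from the fewer samples or the stricter test that some alternatives use.

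A replicate block on the shared numbers 1 and 2 raised the 2420 to 3128 and the 202 to 513. Deviations of same-numbered DKO libraries correlated at 0.147 to 0.215, and with only 2 numbers and no label saying what they mark, they were not read as pairs. All 143 named called peaks kept their call under the block and under TMM scaling, 125 under edgeR and 61 without each library in turn. Of the 143, 102 kept it with only the groups compared, 94 with quantile scaling, 90 with the 8 DKO libraries and 57 against a 1.5-fold change. Where 1 library was left out, the lone library left in its group was assumed to vary like the others. The median of all peaks was -0.04 as deposited, -0.04 with quantile scaling and -0.06 with TMM scaling. With a median SE of 0.34, changes of low peaks are the least precise.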
